A study of Mus musculus with 9 samples.

Results

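Splenic CD3+ T cells stimulated for 48 h through CD3 and CD28 were compared with T cells taken fresh from the spleen, across all genes that passed a count filter. The comparison used 6 of the 9 libraries of the series, 3 from each group. All cells came from female F1 hybrid mice (F1 mus x cast) bred from C57BL/6 mothers with a heterozygous Xist deletion and castaneus fathers, a cross that skews X inactivation. The unstimulated cells went into TRIzol directly after enrichment on CD3+ T cell columns. The stimulated cells were cultured on plate-bound anti-CD3 at 1 µg/ml with soluble anti-CD28 at 10 µg/ml. No group was cultured without the antibodies, so culture and stimulation cannot be told apart. The other 3 libraries came from cells stimulated with the inhibitor IMD-0354 at 2.5 µM. They entered the count filter, the scaling and the estimate of the spread, and are not compared here. A gene could pass the filter through that group alone. The labels call the libraries biological replicates and do not say that each came from a separate animal, so the spread behind each p-value may be partly technical.

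A resting T cell is small, spends little on protein synthesis and recycles its contents through lysosomes and autophagy. Engagement of the T cell receptor together with CD28 starts growth, and then repeated division. Growth calls for ribosomes, transfer RNA charging, protein folding and lipid and nucleotide synthesis, and division calls for copied DNA and new chromatin. The known quiescence machinery, such as brakes on phosphoinositide and G protein signalling, is dismantled in the same period.

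Total counts were 38438379 to 56221174 per library, with 20896 to 23223 genes detected. The 6 libraries fell into their labelled groups on the first principal component, which held 86.6% of the variance. The second component, with 4.9%, separated unstimulated replicate 2 (at -56.9) from unstimulated replicate 3 (at 55.2), and the other 4 libraries lay between -2.1 and 5.1. In every library the most counted gene was Gm26917, an annotated lincRNA that is known to share sequence with ribosomal RNA, with 9.94% to 14.3% of the counts. Neither Gm26917 nor Gm42418, another lincRNA of that kind, passed the test (adjusted p = 0.174 and 0.0866).

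The label of T cells was checked against 16 genes of T cell identity, among them the CD3 chains, the constant regions of the T cell receptor, Lck and Thy1. Their summed level was 3142 to 4786 CPM (read counts scaled to the effective library size) in the unstimulated and 4095 to 4251 CPM in the stimulated libraries. Within the list Cd5, Cd2 and Zap70 were among those that rose, while Bcl11b, Cd3e, Cd3g and Cd247 fell, and the median log2 fold change was -0.02. The receptor constant regions Trac and Trbc1 differed by -0.01 and -0.03 on the log2 scale (adjusted p = 0.951 and 0.884).

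The unstimulated libraries also held RNA of other spleen cells. Markers of macrophages and dendritic cells summed to 1101 to 2251 CPM before and 30.8 to 35.3 CPM after stimulation, and 20 of 21 fell. Neutrophil markers summed to 512 to 2572 CPM against 1.38 to 1.71 CPM, and all 14 fell. B cell markers summed to 228 to 864 CPM against 46.2 to 46.7 CPM, with 14 of 15 lower, and NK cell markers to 482 to 582 CPM against 125 to 239 CPM, with 11 of 12 lower. Siglech and Clec9a, which mark dendritic cells, and Ngp and Retnlg, which mark neutrophils, had 0 counts in all 3 stimulated libraries, where 3 counts over the group would be 0.0192 CPM. Among erythroid markers 10 of 13 fell and 1, the transferrin receptor Tfrc, rose. In such bulk samples, fewer cells of a type and less RNA per cell cannot be told apart.

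Unstimulated replicate 2 stood apart in most of these lists. Relative to the mean of unstimulated replicates 1 and 3, its summed level was 2.49-fold for B cell markers, 1.78-fold for macrophage and dendritic cell markers, 2.95-fold for neutrophil markers and 3.55-fold for erythroid markers. For T cell identity genes it was 0.714-fold and for NK cell markers 1.03-fold. For mitosis genes it was 3.53-fold, and all 44 members were highest in that library among the 3. Unstimulated replicates 1 and 3 also differed, at 1233 and 512 CPM for neutrophil and 688 and 134.5 CPM for erythroid markers. When unstimulated replicate 2 was left out, 14 B cell, 20 macrophage and dendritic cell and 14 neutrophil markers fell, as many as with it. In limma voom 6 neutrophil and 3 erythroid markers passed, against 14 and 10 in edgeR, and under a filter of at least 5 CPM 13 macrophage and dendritic cell markers fell.

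Of 18374 genes tested, 5880 rose and 6246 fell (adjusted p below 0.05). These counts are 32.0% and 34.0% of the genes tested, or 66.0% in either direction, and are the background for every count of a class given here. Among genes changed at least 2-fold, 3587 rose and 4268 fell. In 72.9% of the genes tested the replicates of the groups did not overlap. The median log2 fold change of all genes was -0.05. Among the 10585 genes with a mean of at least 5 CPM, 4539 rose and 3544 fell, and the median was 0.15. Without unstimulated replicate 2 the counts over all genes were 5759 and 5872. Scaling to the upper quartile in place of TMM moved the median of all genes to -0.27, so the direction of a class whose median lies nearer to 0 than this shift depends on the scaling.

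**Figure D1:**
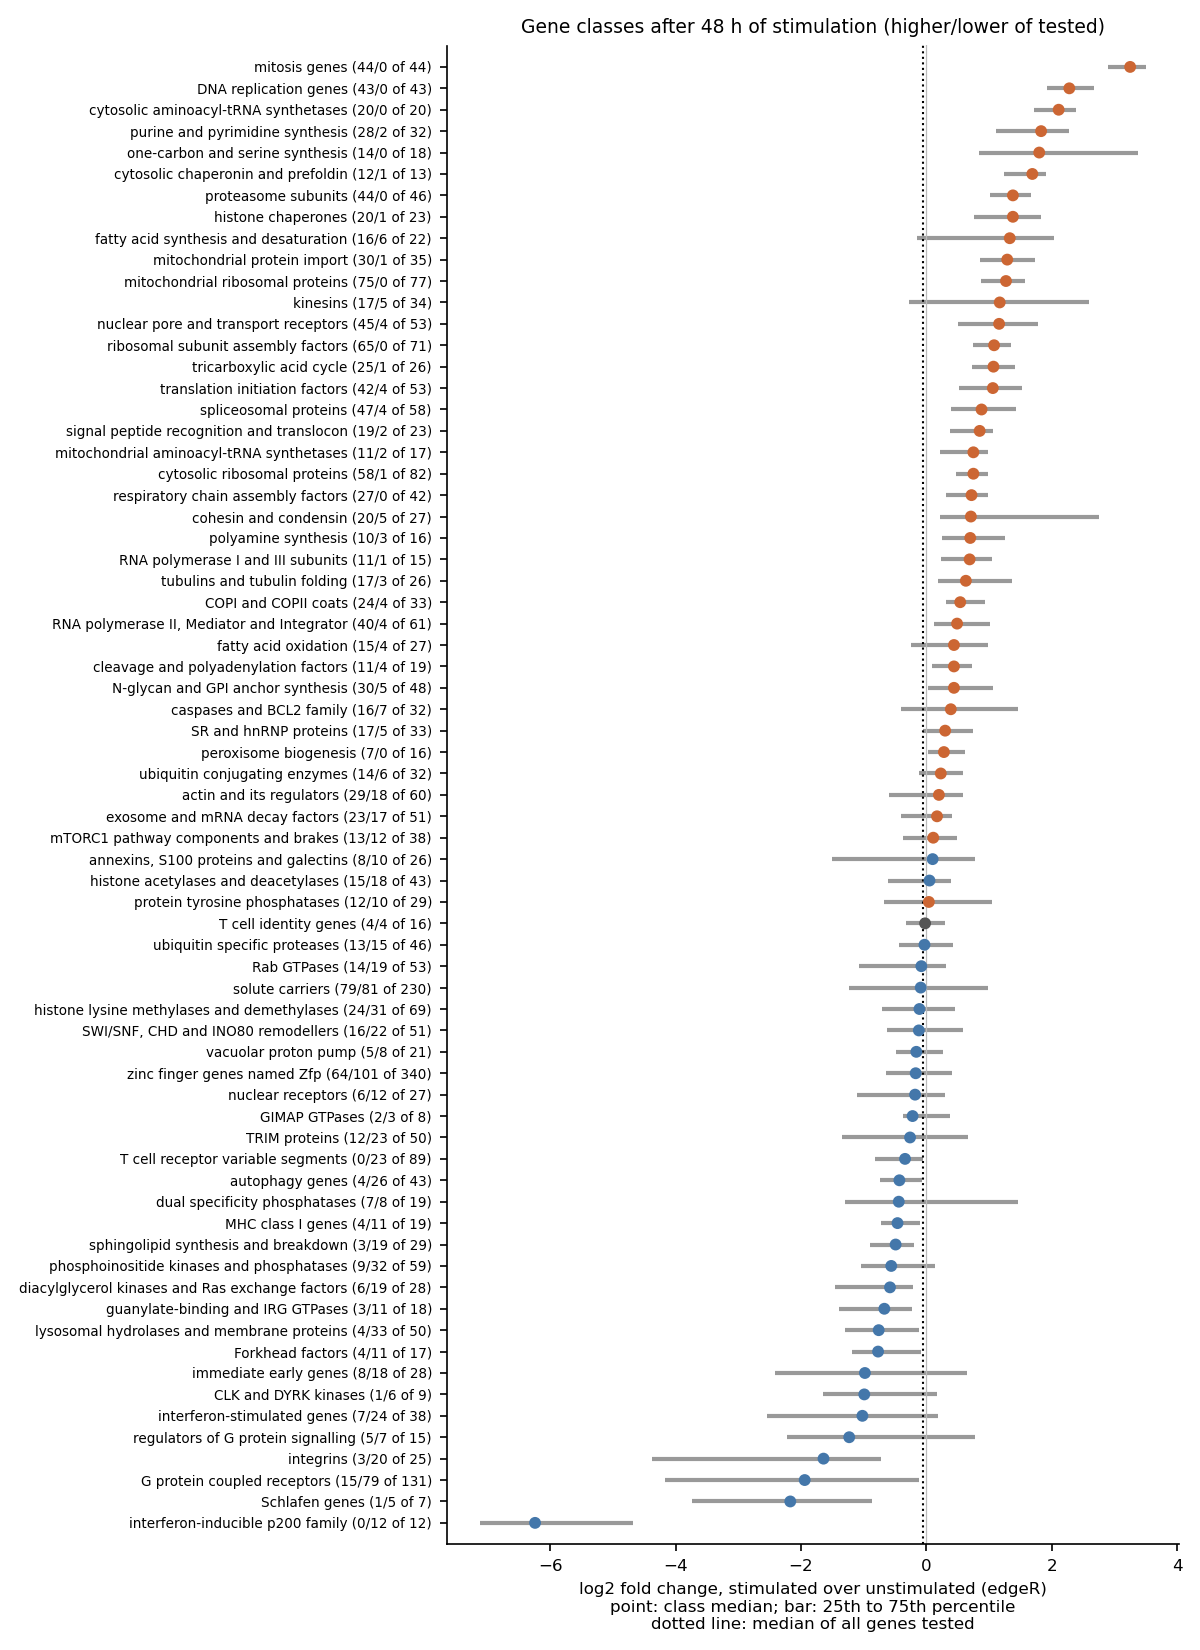
Median log2 fold change (points) and 25th to 75th percentile (bars) of gene classes, stimulated over unstimulated. Markers of other cells and immunoglobulin genes are not drawn. Numbers in brackets are members higher and lower of members tested, orange points are classes with more members higher and blue points classes with more members lower. Mitosis genes lie at the top with a median of 3.25 and the interferon-inducible p200 family at the bottom with a median of -6.24, against -0.05 for all genes (dotted line).

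The apparatus of protein synthesis was raised as a whole. All 20 cytosolic aminoacyl-tRNA synthetases, which load transfer RNAs with amino acids, rose (median log2 fold change 2.11). Of 77 mitochondrial ribosomal proteins 75 rose (median 1.27), of 71 factors that assemble ribosomal subunits 65 rose (1.08), and of 53 translation initiation factors 42 rose and 4 fell (1.06). Cytosolic ribosomal proteins moved less: 58 of 82 rose, 1 fell, and the median was 0.75. The 17 mitochondrial synthetases gave 11 higher and 2 lower.

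Gars, the glycine synthetase, was at 65.1, 77.6 and 63.7 CPM in the unstimulated libraries and at 445, 494 and 488 CPM in the stimulated ones. The groups lay far apart, and the rise was 6.91-fold (log2 2.79 ± 0.10, adjusted p = 2.2e-08). Eif5a, an elongation and initiation factor that carries the modified amino acid hypusine, went from 271, 335 and 242 CPM to 1378, 1335 and 1266 CPM (log2 2.23 ± 0.12, adjusted p = 2.0e-07). Eif4ebp1, which holds back the cap-binding factor until mTORC1 phosphorylates it, was at 7.78 to 16.8 CPM before and 146 to 158 CPM after stimulation, a log2 rise of 3.70. Eif2ak1, the heme-regulated kinase that inhibits initiation, was the called member with the largest fall, from 67.1 ± 13.4 to 43.7 ± 2.9 CPM (SD, n = 3 each). Lyar, a nucleolar protein, rose from 14.9 ± 4.1 to 91.7 ± 6.1 CPM, and Polr1c, a subunit shared by RNA polymerases I and III, from 21.6 ± 1.3 to 87.4 ± 5.8 CPM. Rpl13a and the p53-linked paralog Rps27l led the cytosolic ribosomal proteins, with log2 fold changes of 1.88 ± 0.11 and 2.63 ± 0.33. Many ribosomal protein genes have processed pseudogenes that can share their reads, so the values of single members are uncertain.

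Folding, export and proteasomal breakdown of proteins rose together, while most lysosomal hydrolases and membrane proteins and most autophagy genes fell. In the cytosolic chaperonin and prefoldin, which fold actin and tubulin among others, 12 of 13 subunits rose (median 1.69). Of 46 proteasome subunits and assembly factors 44 rose and 0 fell (median 1.38). Signal peptide recognition and the translocon gave 19 higher and 2 lower of 23, the synthesis of N-glycans and GPI anchors 30 higher and 5 lower of 48, and the COPI and COPII coats 24 higher and 4 lower of 33. Against this, 33 of 50 lysosomal hydrolases and membrane proteins fell and 4 rose (median -0.76), and 26 of 43 autophagy genes fell and 4 rose (median -0.43). The vacuolar proton pump was more divided, with 5 higher and 8 lower of 21 (23.8% and 38.1%, median -0.16).

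The chaperonin subunit Tcp1 was at 149, 144 and 126 CPM before and at 658, 622 and 618 CPM after stimulation (log2 2.18 ± 0.11, adjusted p = 1.2e-07). Psmg1, which assembles the proteasome core, rose from 12.01 ± 0.87 to 47.97 ± 2.00 CPM, and Rpn1, of the enzyme that attaches N-glycans, from 88.1 ± 6.5 to 256 ± 10 CPM. In each of these the lowest stimulated library was above the highest unstimulated one, which was a condition for naming them. Groups did not overlap in 72.9% of all genes tested. The cysteine protease Ctss fell from 127, 167 and 128 CPM to 25.4, 23.6 and 20.8 CPM, and Ctsh from 41.3 ± 17.01 to 1.55 ± 0.13 CPM. Both are abundant in macrophages and B cells, whose markers fell in the same libraries, and the part of those cells in the fall was not tested. The summed level of the lysosomal list was 1.12-fold in unstimulated replicate 2, where macrophage markers were 1.78-fold. Of its 50 members 26 were highest in that library among the unstimulated ones, and without it 33 members still fell. Calcoco1, an autophagy receptor, fell from 45.1 ± 3.7 to 7.86 ± 2.21 CPM. Other members that fell, chosen after their values were seen, were Map1lc3b at a log2 fold change of -2.41, Rb1cc1 at -1.35 and Ulk1 at -0.60. The cathepsin Ctsz, the proton pump subunit Atp6v1a and Atg9b rose, and Atg9b went from 1.26 ± 0.63 to 18.4 ± 1.3 CPM. Within the ubiquitin system 14 conjugating enzymes rose and 6 fell of 32 (43.8% and 18.8%). Of 46 specific proteases 13 rose and 15 fell (28.3% and 32.6%), near the 32.0% and 34.0% of all genes tested. Among these proteases were Usp28 (log2 -2.07) and Usp39 (log2 1.45).

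Most proteins of nuclear RNA processing rose, while most CLK and DYRK kinases fell. Of 58 spliceosomal proteins 47 rose and 4 fell, of 53 nuclear pore proteins and transport receptors 45 rose and 4 fell (median 1.16), and of 61 subunits of RNA polymerase II, Mediator and Integrator 40 rose and 4 fell. Of 9 CLK and DYRK kinases, some of which phosphorylate SR proteins, 6 fell and 1, Clk3, rose. The SR and hnRNP proteins gave 17 higher and 5 lower of 33.

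Clk1 was at 565, 445 and 585 CPM in the unstimulated and at 162, 126 and 135 CPM in the stimulated libraries, a 3.77-fold fall (adjusted p = 8.0e-07). Srsf5 fell 1.76-fold, from 433 ± 27 to 246 ± 5 CPM, while Hnrnpa1 rose 3.65-fold, from 238 ± 49 to 867 ± 98 CPM. The small nuclear ribonucleoprotein Snrpd1 rose from 15.9 ± 1.5 to 70.4 ± 10.5 CPM. The import receptor Kpna2 was at 16.7, 34.9 and 16.3 CPM and then at 188, 161 and 184 CPM, with the highest unstimulated value in replicate 2. Its paralog Kpna4 fell slightly, from 281 ± 32.5 to 215 ± 18 CPM. Of 51 exosome and mRNA decay factors 23 rose and 17 fell, with a median of 0.17 that was -0.05 under upper-quartile scaling. Cnot9 and Exosc2 rose, with log2 fold changes of 1.63 and 1.56. Zfp36, which binds AU-rich elements, fell 9.67-fold from 500, 371 and 221 CPM to 28.1, 44.0 and 40.8 CPM. It is also an immediate early gene, and its 3 unstimulated values spread more widely than those of most genes named here.

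The lists of chromatin genes differed in direction. Factors that package or condense replicated DNA rose: 20 of 23 histone chaperones (median 1.38) and 20 of 27 members of cohesin and condensin, with 1 and 5 lower. Enzymes that modify or remodel nucleosomes were split, with 24 higher and 31 lower of 69 histone lysine methylases and demethylases, 15 and 18 of 43 acetylases and deacetylases, and 16 and 22 of 51 remodellers. In this order, 34.8%, 34.9% and 31.4% rose and 44.9%, 41.9% and 43.1% fell, against 32.0% and 34.0% of all genes tested. Of 340 zinc finger genes named Zfp, 64 rose and 101 fell (18.8% and 29.7%, both below the shares of all genes). Of 17 Forkhead factors 4 rose and 11 fell.

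Ezh2, the methylase of Polycomb complex 2 that is common in dividing cells, was at 34.1, 58.2 and 23.7 CPM and then at 282, 311 and 276 CPM (log2 2.91 ± 0.28, adjusted p = 8.9e-06, and 3.33 without unstimulated replicate 2). The remodeller Hells, needed for DNA methylation, rose from 20.96 ± 9.27 to 186 ± 17 CPM. Smarca2, a motor subunit of SWI/SNF complexes, fell from 228 ± 23 to 45.1 ± 4.9 CPM, and Chd3 from 660 ± 104 to 167 ± 12.5 CPM. The demethylase Kdm7a fell 3.84-fold and the acetylase Crebbp 2.87-fold, whereas Hat1, which acetylates newly made histones, rose 4.39-fold. The condensin subunit Ncapg rose from 9.06, 26.4 and 4.86 CPM to 176, 155 and 155 CPM. Its log2 fold change was 3.59 with unstimulated replicate 2 and 4.55 without it. Among nuclear receptors Vdr, the vitamin D receptor, rose 18.2-fold while the clock repressor Nr1d2 fell 4.73-fold. Foxm1, a driver of mitotic genes, rose 6.54-fold and Foxj2 fell 3.67-fold. Without unstimulated replicate 2 the log2 fold changes of Vdr and Foxm1 went from 4.18 to 4.77 and from 2.71 to 3.36.

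Biosynthetic metabolism rose broadly. In purine and pyrimidine synthesis 28 of 32 genes rose and 2 fell (median 1.83), and in serine and folate-dependent carbon metabolism 14 of 18 rose and 0 fell (median 1.80). The tricarboxylic acid cycle gave 25 higher and 1 lower of 26, mitochondrial protein import 30 higher and 1 lower of 35, and assembly factors of the respiratory chain 27 higher and 0 lower of 42. Fatty acid synthesis gave 16 higher and 6 lower of 22, while sphingolipid synthesis and breakdown gave 3 higher and 19 lower of 29. Of 230 solute carriers 79 rose and 81 fell (34.3% and 35.2%), near the 32.0% and 34.0% of all genes tested.

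Psat1, the second enzyme of serine synthesis, was at 21.5, 26.9 and 19.8 CPM before and at 508, 484 and 530 CPM after stimulation, a 22.3-fold rise (adjusted p = 6.0e-09). Aldh1l2, a mitochondrial formyltetrahydrofolate dehydrogenase, had 0 counts in unstimulated replicates 1 and 3 and 0.139 CPM in replicate 2, against 46.2, 47.4 and 39.4 CPM in the stimulated libraries. The serine and folate genes together took 0.0565% ± 0.0056 of all counts before and 0.259% after stimulation, a ratio of 4.58. The exact permutation test of this share gave p = 0.10, the smallest p possible with 3 against 3 libraries. Scd2, a fatty acid desaturase, rose 24.3-fold, from 57.8 ± 14.4 to 1403 ± 84 CPM. Acacb, the carboxylase whose product blocks fatty acid entry into mitochondria, fell 5.51-fold, and Cpt1a, the gate of that entry, fell 2.47-fold. Odc1 and Srm, which make polyamines, rose 3.77-fold and 5.90-fold, and Sat1, which breaks them down, fell 2.10-fold. Idh1, the cytosolic isocitrate dehydrogenase, was the only member of the tricarboxylic acid cycle list that fell, from 19.02 ± 4.58 to 11.6 ± 1.5 CPM. Hspa9, the motor of mitochondrial import, went from 159, 150 and 142 CPM to 868, 928 and 853 CPM. The sphingolipid enzyme B4galt6 fell from 11.6, 25.3 and 10.3 CPM to 0.0845, 0.0865 and 0.341 CPM, and was highest in unstimulated replicate 2. Slc17a6, a glutamate transporter of neurons, was below 0.1 CPM in each unstimulated library and at 11.8, 10.7 and 9.93 CPM after stimulation.

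**Figure D2:**
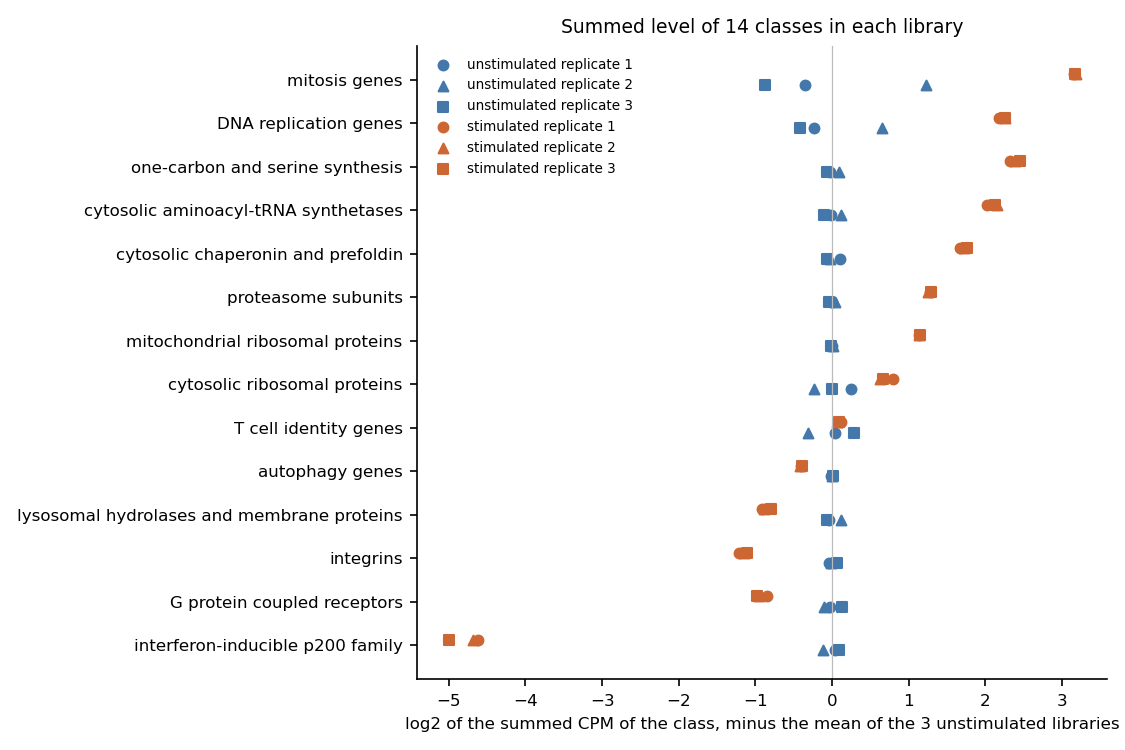
Summed CPM of 14 classes in each of the 6 libraries, as the log2 difference from the mean of the 3 unstimulated libraries (blue, unstimulated; orange, stimulated; marker shape gives the replicate). The stimulated libraries lie close together in each class, and unstimulated replicate 2 lies above the other unstimulated libraries for mitosis and DNA replication genes and below them for T cell identity genes.

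Most G protein coupled receptors and integrins fell, and the lists of signalling regulators were more divided. Of 131 G protein coupled receptors 79 fell and 15 rose (median -1.94), of 25 integrins 20 fell and 3 rose (-1.64), of 59 phosphoinositide kinases and phosphatases 32 fell and 9 rose (-0.56), and of 28 diacylglycerol kinases and Ras exchange factors 19 fell and 6 rose (-0.58). Some members, such as the complement receptor C5ar1 and the integrin Itgad, belong to myeloid cells, whose markers fell too, and the part of those cells in these counts was not tested. The summed level of the integrins in unstimulated replicate 2 was 0.978 of the mean of replicates 1 and 3, while that of macrophage and dendritic cell markers was 1.78-fold. A sum mostly follows its most abundant members. Among the unstimulated libraries, 16 of 26 integrins and 80 of 175 receptors with counts were highest in replicate 2, as were 18 of 22 macrophage and dendritic cell markers. Without that library 73 receptors and 19 integrins fell. Under a filter of at least 5 CPM, which leaves fewer receptors to test, 39 fell.

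Pik3ip1, an inhibitor of phosphoinositide 3-kinase, fell 9.74-fold from 143 ± 33 to 14.7 ± 1.2 CPM. Rasgrp2, which activates Rap1 in response to diacylglycerol and calcium, fell 20.6-fold from 112 ± 14 to 5.45 ± 0.63 CPM, whereas Spry1, an inhibitor of Ras signalling, rose 3.11-fold. In families of feedback genes, 7 of 19 dual specificity phosphatases rose and 8 fell (36.8% and 42.1%). Of 15 regulators of G protein signalling 5 rose and 7 fell (33.3% and 46.7%). The shares of all genes tested were 32.0% and 34.0%. The dual specificity phosphatase Dusp1 fell 41.0-fold, from 684, 567 and 310 CPM to 13.3, 13.9 and 10.9 CPM, while Dusp4 rose 25.5-fold, from 6.82 ± 0.94 to 174 ± 11 CPM. Rgs2 fell 6.70-fold and Rgs16 rose 7.11-fold, both of them regulators that shorten G protein signals. The chemokine receptor Ccr8 was at 1.05, 0.882 and 1.28 CPM and then at 69.95, 69.25 and 67.38 CPM, against the direction of its class. Likewise Itga3, an integrin that binds laminin, rose 11.6-fold from 5.37 ± 0.58 to 62.4 ± 14.96 CPM. Among tyrosine phosphatases Ptpn5 and Ptpn3 rose 16.6-fold and 12.4-fold. In the family of caspases and BCL2 proteins 16 of 32 rose and 7 fell, with Bnip3 at 3.73 ± 0.21 and 124 ± 30 CPM and Bmf, a killer protein of the BH3-only kind, at 17.8 ± 5.0 and 1.93 ± 0.98 CPM.

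Immediate early genes, which answer receptor signals and stress within minutes, were mostly lower at 48 h than in the fresh cells. Of 28 such genes 18 were lower and 8 higher after stimulation. Fos was at 1012, 768 and 420 CPM in the unstimulated libraries and at 10.3, 10.4 and 10.5 CPM in the stimulated ones. Fosb fell with it, from 538 ± 282 to 1.63 ± 0.38 CPM. Fos, Fosb, Dusp1 and Zfp36 shared the order of the unstimulated libraries, highest in replicate 1 and lowest in replicate 3. Ier3, a stress-inducible survival gene, was the most raised, from 7.63 ± 0.53 to 99.3 ± 11.9 CPM.

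Interferon-inducible families mostly fell. The p200 proteins, nucleic acid sensors and their relatives encoded side by side on chromosome 1, had the lowest median of the 5 lists for interferon-induced and antigen-presenting genes. All 12 members tested fell, with a median log2 fold change of -6.24, and 0 of them had 0 counts in a whole group. Of 38 interferon-stimulated genes 24 fell and 7 rose, of 18 guanylate-binding proteins and related GTPases 11 fell and 3 rose, of 7 Schlafen genes 5 fell and 1 rose, and of 19 genes of MHC class I and peptide loading 11 fell and 4 rose.

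Ifi213 was at 83.6, 70.6 and 94.0 CPM before and at 0.423, 0.173 and 0.341 CPM after stimulation. Ifi208 fell from 49.9 ± 10.2 to 0.109 ± 0.023 CPM. The family summed to 826, 740 and 856 CPM and then to 32.8, 31.4 and 25.2 CPM. In unstimulated replicate 2 the sum was not raised (0.881 of the mean of the other 2), while 5 of 12 members were highest there among the unstimulated libraries. These genes are close copies, so reads can be split among them in counting. Samd9l, which restricts translation in virus-infected cells, fell from 344, 352 and 376 CPM to 21.95, 18.35 and 14.18 CPM. Slfn5 fell 21.6-fold and Gbp9 3.84-fold. Bst2, or tetherin, rose 2.67-fold and Gbp5 3.01-fold, so that members of the same families moved in opposite directions. Tapbp, which loads peptides, fell 1.78-fold, and its relative Tapbpl rose 2.01-fold.

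The p200 genes fell together, and promoters are shown of the 3 members with the largest falls that hold an interferon-stimulated response element (ISRE) before the start listed (RefSeq, GRCm38.p6). Each is a stretch of 120 bases from the 250 before the start. Capitals mark the element, searched on both strands as GAAA and GAAA with any 2 bases between them. The stretches lie at chr1:173673545-173673664 (Ifi208, plus strand), chr1:173599281-173599400 (Ifi213, minus strand) and chr1:173535972-173536091 (Ifi214, minus strand).
Ifi208: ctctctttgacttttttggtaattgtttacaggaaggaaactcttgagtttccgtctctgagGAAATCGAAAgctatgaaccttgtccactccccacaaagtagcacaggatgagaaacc
Ifi213: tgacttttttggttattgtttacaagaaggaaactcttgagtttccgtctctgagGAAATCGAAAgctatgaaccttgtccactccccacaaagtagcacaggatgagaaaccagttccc
Ifi214: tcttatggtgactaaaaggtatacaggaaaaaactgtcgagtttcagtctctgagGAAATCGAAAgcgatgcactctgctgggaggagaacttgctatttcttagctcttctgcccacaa
The same letters fill the element in all 3. Among p200 genes of at least 5 CPM, 6 of 9 promoters (250 bases before to 50 after the start, either strand) held the element, against 3.29% of the 8028 promoters matched. The median GC content of these p200 promoters was 42.3%, against 61.3% for all, and its part in the share was not tested. The p200 genes are close copies, so their promoters are not independent of each other. Over all genes matched, the element was in 3.27% of promoters of genes that rose and 4.08% of those that fell, against 2.23% of those not called. For the wider interferon list and for lysosomal genes fewer than 80% of the members had a promoter in the table, and such a share is void.

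Both lists of division genes rose throughout. All 43 DNA replication genes rose (median 2.28) and all 44 mitosis genes rose (median 3.25). Without unstimulated replicate 2 the counts were the same and the medians were 2.76 and 4.31. Orc1, of the complex that marks origins, was at 2.30, 12.7 and 1.87 CPM in the unstimulated and at 74.3, 76.2 and 74.3 CPM in the stimulated libraries. The mitotic kinase Aurkb was at 4.07, 11.7 and 2.76 CPM and then at 82.8, 92.0 and 100.4 CPM. In both, unstimulated replicate 2 was above the other unstimulated libraries and far below the stimulated ones, and the log2 fold changes of 3.74 and 3.90 were 5.17 and 4.75 without it. The fold change of Mki67, a marker of cycling cells, depended on it: the log2 value was 2.33 ± 0.65 with replicate 2, which stood at 378 CPM, and 3.6 without it.

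Promoters of these genes are shown for the letters bound by E2F proteins and for the cell cycle genes homology region (CHR). The first group holds the 3 most raised replication genes in the table with an E2F sequence before the start, which is TTTCCCGC, TTTCCCGG, TTTGGCGC, TTTGGCGG, TTCCCGCC or TTGGCGCC on either strand, in capitals, where matches can overlap. They lie at chr17:56303217-56303336 (Uhrf1, which guides DNA methylation to copied strands), chr17:56040296-56040415 (Chaf1a, a histone chaperone of the replication fork) and chr11:98907957-98908076 (Cdc6, a licensing factor), all on the plus strand.
Uhrf1: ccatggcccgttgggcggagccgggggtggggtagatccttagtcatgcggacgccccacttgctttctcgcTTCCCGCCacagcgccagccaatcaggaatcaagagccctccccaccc
Chaf1a: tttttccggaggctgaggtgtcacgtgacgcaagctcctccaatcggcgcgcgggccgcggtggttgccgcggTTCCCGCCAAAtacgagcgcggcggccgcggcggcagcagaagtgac
Cdc6: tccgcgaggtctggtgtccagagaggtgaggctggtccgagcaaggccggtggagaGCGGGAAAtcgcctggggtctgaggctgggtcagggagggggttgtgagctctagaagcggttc
An E2F sequence was in 17 of 35 replication promoters (48.6%), in 3 of 36 mitosis promoters (8.33%) and in 10.6% of all 8028. Of the 43 replication genes of at least 5 CPM, 35 had a promoter in the table.

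The second group holds the 3 most raised mitosis genes in the table with a CHR sequence, TTTGAA or TTCGAA, before the start. CHR sequences and CCAAT boxes are both in capitals, on either strand. They lie at chr2:164769809-164769928 (Ube2c, which marks mitotic cyclins for breakdown), chr15:102296173-102296292 (Espl1, or separase, which opens cohesin rings) and chr2:118597966-118598085 (Bub1b, a spindle checkpoint kinase), all on the plus strand.
Ube2c: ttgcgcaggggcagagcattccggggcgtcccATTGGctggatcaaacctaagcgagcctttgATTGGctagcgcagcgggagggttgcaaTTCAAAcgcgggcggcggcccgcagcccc
Espl1: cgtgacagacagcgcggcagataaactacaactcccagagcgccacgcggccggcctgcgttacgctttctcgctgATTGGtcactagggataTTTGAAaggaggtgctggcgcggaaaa
Bub1b: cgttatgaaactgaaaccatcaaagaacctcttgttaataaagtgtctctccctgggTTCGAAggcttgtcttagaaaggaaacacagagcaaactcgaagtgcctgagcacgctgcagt
In Ube2c and Espl1 the CHR sequence lies 29 and 27 bases before the start with a CCAAT box upstream, and in Bub1b it lies 188 bases before the start, with no CCAAT box in the stretch shown. CHR sequences were in 28 of 36 mitosis promoters (77.8%), in 17.1% of the replication promoters and in 14.1% of all. CCAAT boxes were in 77.8%, 57.1% and 39.4%. These are matches of letters and were not tested as binding sites. Over all genes matched, E2F sequences were in 12.6% of promoters of genes that rose and 7.74% of those that fell, against 10.7% of those not called. The ETS sequence CCGGAAG was in 23.4% and 15.1%, against 24.3% of those not called. The E-box CACGTG was in 10.1% and 11.2%, against 11.4%, but in 25.4% of the promoters of ribosomal assembly factors.

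In a list of pairs, the members moved in the same direction about as often as in opposite ones. The list was chosen with earlier results of these data known, so the counts describe these pairs and not related genes in general. Of 76 pairs of paralogs or partners, 75 had both members tested. In 27 pairs the members were called in opposite directions, in 25 both rose, in 4 both fell, and in 19 at least 1 member was not called. In 24 pairs the member with the higher level per transcript length was a different one after stimulation.

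The cell cycle inhibitor Cdkn1b made up 98.3% of the summed TPM (abundance scaled to transcript length and library) of Cdkn1a and Cdkn1b before and 23.1% after stimulation. Cdkn1a rose from 3.33 to 174.5 TPM while Cdkn1b fell from 196 to 52.2 TPM. Txnip, which binds and inhibits thioredoxin, took 86.1% and then 16.04% of the sum with thioredoxin itself, Txn1. Jak3, the kinase of the common gamma chain, took 15.1% and then 62.9% of its sum with Jak1. For Sesn1 and Sesn2, which restrain mTORC1, the share of Sesn2 went from 14.5% to 83.0%. Ezh2 took 29.6% and then 90.7% of its sum with Ezh1, and its unstimulated shares were 27.2%, 42.3% and 19.3%, highest in replicate 2. In nucleotide synthesis the mitochondrial thymidine kinase Tk2 gave way to Tk1 (87.5% to 25.1%), and Ctps2 to Ctps (72.8% to 18.9%). Among binding proteins of the MYC partner MAX, Mxd3 went from 5.23% to 64.2% of its sum with Mxd4. Acacb took 48.8% of its sum with Acaca before and 4.73% after stimulation, and Eif4ebp2 81.0% and 19.9% of its sum with Eif4ebp1. In all 10 pairs the 3 unstimulated shares and the 3 stimulated shares did not overlap. The pairs were picked for the size of this change, so it is a description.

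**Figure D3:**
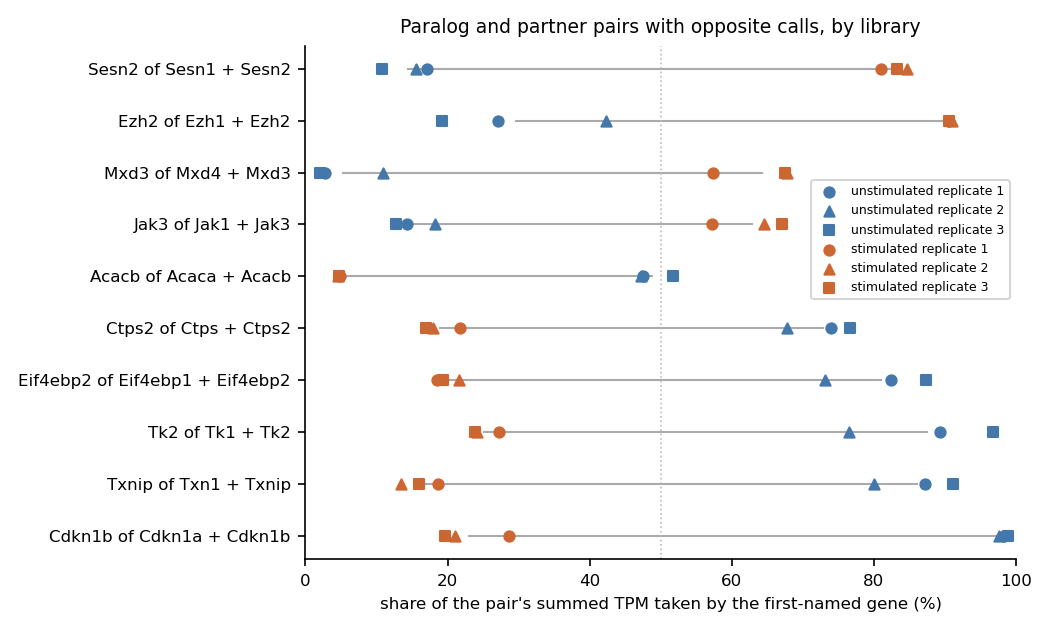
Share of the pair's summed TPM taken by the gene named at the left, in each unstimulated (blue) and stimulated (orange) library, for the 10 pairs called in opposite directions with the largest change. Each marker is a library and the line joins the group means. No pair has overlapping groups, and the dotted line marks equal shares.

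Some genes stayed nearly level relative to the scaled library. No amount of RNA per cell is given, so a level gene may have changed per cell. Of the 10585 genes of at least 5 CPM, 1772 (16.7%) had a 95% interval of the log2 fold change that lay within -0.5 and 0.5 in limma voom, and of these 267 were still called by edgeR. The most abundant included Actb (log2 0.33), the splicing scaffold Srrm2 (0.01), the mitochondrial cytochrome b gene mt-Cytb (0.06), the ribosomal protein genes Rps24 (0.09) and Rps16 (0.17), Huwe1 (0.10) and Wnk1 (0.08). Srrm2 was at 1318, 1311 and 1286 CPM and then at 1233, 1403 and 1313 CPM. Actb was called higher (adjusted p = 0.017) although its interval lay within these bounds, from 7097 ± 450 to 8907 ± 171 CPM. Scaled to transcript length, Actb was at 9381 ± 871 TPM before and 9108 ± 455 TPM after stimulation. Eif4g2, at a log2 value of 0.21, was called as well (adjusted p = 0.0412), but was at -0.01 under upper-quartile scaling.

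Per transcript length, the nuclear lincRNA Malat1 lost most of all genes, from 8582 to 1045 TPM, with 18410, 16950 and 15540 CPM before and 2536, 2771 and 2670 CPM after stimulation (adjusted p = 1.4e-07). Of protein-coding genes outside other cell types, Tpt1 and B2m lost most, with log2 fold changes of -0.68 and -0.46. Granzyme B (Gzmb), a cytotoxic protease, gained most among mRNAs, from 53.7 to 5646 TPM. Called genes with the next largest gains were the mitochondrial mt-Co1, the histone genes Hist1h4k and Hist1h4f, the chaperone Hsp90ab1, and the histone genes Hist1h4h and Hist1h2bg, with Hist1h4k from 467.5 to 3377 TPM. Histone genes of the 2 large clusters are near copies, so their single values are uncertain. Rpph1, the RNA of ribonuclease P, had the largest gain of all but did not pass the test (adjusted p = 0.065). It was at 16400 CPM in stimulated replicate 1 and at 3868 and 3384 CPM in the others.

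Direction went with gene length. Protein-coding genes of at least 5 CPM were put into 5 equal groups by the span from start to end. In the shortest group, with a median span of 5.02 kb, 54.2% rose and 23.1% fell (median log2 fold change 0.52). In the longest, with a median of 112 kb, 26.5% rose and 52.8% fell (median -0.35), and the 3 groups between stepped down in order, through 0.34, 0.23 and 0.11. The order was the same for genes in none of the classes above (0.43 to -0.34), without unstimulated replicate 2 (0.50 to -0.34) and under upper-quartile scaling (0.30 to -0.57), which shifts all groups down.

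Each stimulated library showed the step, with a median difference of log2(CPM + 0.5) from the unstimulated mean of 0.48 to 0.52 in the shortest group and -0.36 to -0.31 in the longest. Among the unstimulated libraries the same medians, each against the other 2, stayed between -0.05 and 0.05. Span and transcript length go together. Within each of the 3 groups of genes by span the median fell in order with transcript length, from 0.62 through 0.17 to 0.00 in the shortest span, from 0.42 through 0.23 to 0.12 in the middle, and from 0.27 through 0.00 to -0.27 in the longest. Span was in order within the group of the shortest transcripts only. For transcripts of middle length the medians from short to long span were 0.17, 0.23 and 0.00, and for long transcripts 0.00, 0.12 and -0.27. Mean level showed no such order, with medians of 0.06, 0.25, 0.23, 0.17 and 0.11 from the lowest to the highest group.

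**Figure D4:**
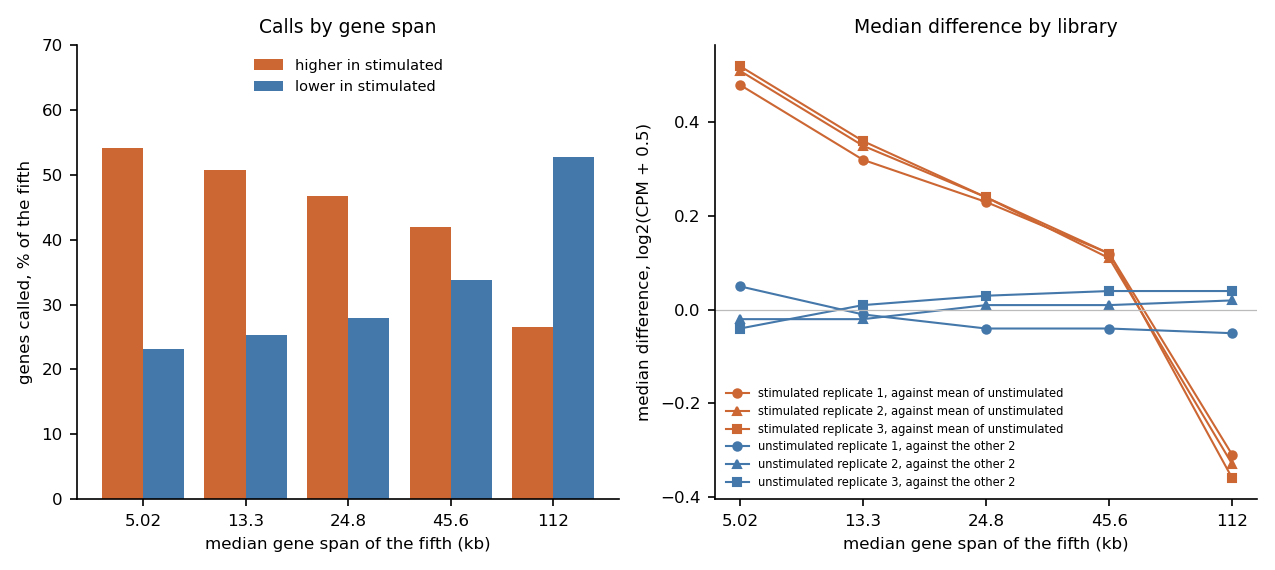
Left, percent of protein-coding genes of at least 5 CPM called higher (orange) or lower (blue) in 5 equal groups by gene span, labelled with the median span in kb. Right, median difference of log2(CPM + 0.5) in each group, for each stimulated library against the mean of the unstimulated ones (orange) and for each unstimulated library against the other 2 (blue). The stimulated lines run from about 0.5 down to about -0.3, and the unstimulated lines stay near 0.

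Long noncoding genes rose in a smaller share than protein-coding ones, and the difference was not tested. Of 13680 protein-coding genes tested 5172 rose and 4585 fell (37.8% and 33.5%). Of 1480 long noncoding genes 187 rose and 550 fell (12.6% and 37.2%, median -0.73). Genes annotated inside introns of others on the same strand gave 12 higher and 76 lower of 150, antisense genes 52 and 208 of 517, processed transcripts 45 and 77 of 268, and the unverified transcripts called TEC 73 and 516 of 965. In a library of total RNA without a stated strand setting, reads of such genes and of unspliced or opposite transcripts at the same place cannot be told apart. Among 1488 pseudogenes more rose than fell, 400 against 248, and 840 were not called. These shares, 26.9% and 16.7%, are both below the 32.0% and 34.0% of all genes tested. The part of reads shared with parent genes was not tested.

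Among long noncoding genes Mir155hg, the host transcript of miR-155, rose 44.5-fold, from 1.37, 0.928 and 0.993 CPM to 54.3, 47.1 and 45.0 CPM. A630091E08Rik rose from 0.0727 ± 0.0424 to 12.9 ± 1.8 CPM and Gm17767 from 0.199 ± 0.139 to 24.7 ± 3.1 CPM. Gm45552 fell from 57.1, 37.8 and 57.2 CPM to 0.782, 0.0649 and 0.209 CPM. F630028O10Rik fell from 26.5 ± 14.9 to 0.0487 ± 0.0548 CPM and was highest in unstimulated replicate 2, with 43.1 CPM.

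Segments of antigen receptors were lower where they were called. Of 89 variable segments of the T cell receptor 23 fell and 0 rose (median -0.34), while the constant regions Trac and Trbc1 were not called. Without stimulated replicate 3, and likewise without unstimulated replicate 3, 14 segments fell. Trbv13-3 fell from 15.1 ± 3.8 to 5.11 ± 0.53 CPM. Of 188 immunoglobulin genes 187 fell, together with the B cell markers above. By chromosome, the median log2 fold change of protein-coding genes ranged from -0.19 on chromosome 1 to 0.24 on chromosome 13. The X chromosome lay inside this range, with 156 higher and 136 lower of 431 and a median of 0.09.

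**Figure D5:**
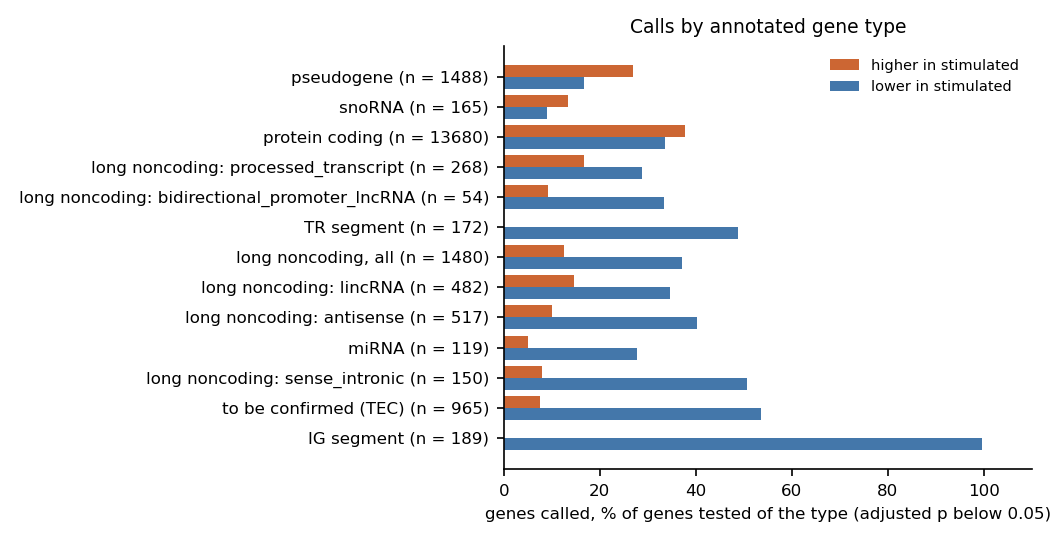
Percent of the genes tested of each annotated type that were called higher (orange) or lower (blue) in stimulated cells, for types with at least 50 genes tested. Protein-coding genes stand at 37.8% and 33.5%, all long noncoding genes at 12.6% and 37.2%, and T cell receptor (TR) and immunoglobulin (IG) segments have no member that rose.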

How the data were processed

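The deposited values were read counts per gene for 49671 genes in 9 libraries. Per the labels' protocols, libraries were made from total RNA with a stranded kit that depletes ribosomal RNA. STAR 2.7.1a, featureCounts and mm10 are named in the submitters' processing notes. The sources used here do not give the annotation release, the strand setting or how mates were counted. Of counts from 1 to 10, 70.6% to 78.5% were even in the 6 libraries compared, so a fragment may often count as 2 reads, and the floor of 3 counts covers counting error only. Castaneus reads were mapped to a C57BL/6 reference, which can lower counts of divergent genes.

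Gene names, spans and types came from GENCODE M21 (49412 identifiers matched, 259 did not). The function filterByExpr of edgeR 4.0.16 (R 4.3.3) left 18374 genes. All 9 libraries entered a quasi-likelihood fit with TMM factors and 6 residual degrees of freedom. Two-sided p-values were adjusted over all 18374 genes (Benjamini-Hochberg), with a threshold of 0.05. "Rose" and "fell" mean past it, relative to the scaled library, since no amount of RNA per cell is given. CPM used TMM factors, and TPM used merged exon length. A value after ± is the SD over 3 libraries, or, beside a log2 fold change, an approximate SE. The fit was also run on simulated data with few changed genes. That run does not test the scaling for data in which 66.0% of genes are called. Promoters were those RefSeq lists first for a gene, on GRCm38.p6, for 8028 of 9883 protein-coding genes of at least 5 CPM.

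The members, the 79 classes, the 76 pairs and the motifs were chosen with earlier results of these data known, and patterns of the classes were corrected for stray symbols once the gene names were read. Named genes are, per class, up to 2 called members with the largest change in the main direction and 1 in the other, of at least 5 CPM and without overlap of the groups, with the 10 largest gains and losses in TPM, the 10 most abundant level genes, 10 pairs and 8 long noncoding RNAs. Other genes, and the printed promoters, were chosen after their values were seen. The 14 alternatives covered DESeq2 1.42.0, limma voom 3.58.1, scaling, count filters, the samples in the fit, a replicate block and leaving out each library. Some items are not reported here.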

Additional observations from a re-analysis of the deposited data

How the results depend on the processing

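Over 14 alternative settings the counts of all genes stayed within 1.5 times of those reported, except that a filter of at least 5 CPM gave 4049 higher and 4104 lower, with fewer genes tested and its own scaling. That filter, which leaves fewer members to test, gave 3 higher for peroxisome genes and 19 for actin regulators, and as members lower 39 G protein coupled receptors, 9 T cell receptor segments, 35 immunoglobulin genes, 2 Schlafen genes, and 13 macrophage, 2 platelet and 1 endothelial markers. Its medians turned to -0.09 for histone acetylases and deacetylases, -0.02 for mTORC1 components and -0.10 for annexins. Upper-quartile scaling gave 4865 higher and 7378 lower. It gave 11 mRNA decay factors higher in place of 23, gave 17 actin regulators higher in place of 29, and put 23 ubiquitin specific proteases lower in place of 15. Its medians turned to -0.05 for decay factors, -0.17 for acetylases and deacetylases, -0.02 for actin regulators, -0.11 for mTORC1 components, -0.18 for tyrosine phosphatases and -0.12 for annexins, and Eif4g2 to -0.01 (adjusted p = 0.92). In limma voom 6 neutrophil and 3 erythroid markers were lower, and the cause was not tested. DESeq2 called 5728 higher and 6532 lower. Leaving out a library gave 5363 to 5759 higher and 5662 to 5942 lower. It took the GIMAP genes lower from 3 to between 1 and 3 and the T cell receptor segments lower from 23 to between 14 and 28.

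With the replicate block, 5705 genes were higher and 6002 lower. Same-numbered libraries deviated with correlations of -0.036, 0.011 and -0.045 across genes, and not every library correlated best with its own number. The labels do not say whether the numbers pair the samples. Correlations over 3 libraries in each group cannot decide it.

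Each group has 3 libraries. Markers of other cells fell in the same contrast and have no separate control, and a castaneus genome was mapped to a C57BL/6 reference.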

Other observations

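Genes called in the same direction lay next to each other in several places, seen after the values were examined. The longest runs of neighbouring tested genes that fell were 87 genes of the immunoglobulin kappa locus on chromosome 6 and 77 of the heavy chain locus on chromosome 12. A run of 24 genes on chromosome 6 (chr6:129577905-131247362, mm10) held killer lectin-like receptors, among them Klrd1, Klrk1 and Klra8, which natural killer cells and some T cells carry. A run of 13 on chromosome 11 held the Cd300 family of myeloid receptors, and a run of 11 on chromosome 1 held Ugt1a genes, which share exons, so that their counts are not independent. The longest run that rose, of 17 genes, was in the histone cluster of chromosome 13 (chr13:23531050-23692908), and another of 11 lay in the same cluster region. Joining segments of the T cell receptor alpha locus, Traj25 to Traj9, gave a run of 16 that fell.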
